A study of Saccharomyces cerevisiae with 6 samples.

Results

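The genes described here are 10 genes of budding yeast (Saccharomyces cerevisiae) chosen by name for their work at the cortical actin patch, in endocytosis or in the uptake of DNA: SLA1, END3, VRP1, SAC6, SCP1, RVS161, RVS167, LDB19, PMR1 and SPF1. The choice was made with earlier results of these data known. All 10 had a probe set on the expression arrays, among 5449 genes tested there. Of the 10, 7 had a deletion strain on the integration arrays, among 3841 strains with a gene name. RVS167, END3 and SAC6 strains were not analysed here. Expression was measured in log-phase haploid BY4741 in synthetic complete medium, on 2 arrays of the wild type and 2 of a fun30 deletion described as isogenic. FUN30 encodes a chromatin remodelling ATPase related to Snf2. Integration was measured in a pool of homozygous diploid deletion strains. The pool was transformed with a linear isu1Δ::URA3 cassette, a linear sod2Δ::URA3 cassette or, as the control, the circular plasmid pRS416. Transformants grew on plates without uracil for 2 days at 30 °C, and each cassette had 1 two-colour array that compared the barcodes of its pool with those of the plasmid pool.

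An endocytic site forms in yeast when coat proteins gather at the plasma membrane and then recruit activators of the Arp2/3 complex. The branched actin network that follows, cross-linked by bundling proteins, pulls the membrane inward, and crescent-shaped BAR domain proteins help to pinch off the vesicle. Arrestin-related adaptors select the membrane proteins that are taken in by bringing the ubiquitin ligase Rsp5 to them. In chemical transformation the cassette and the plasmid must both enter the cell, and mutants of actin patch genes, PMR1 and SPF1 have been studied for their transformation competence. A barcode ratio between a cassette pool and a plasmid pool cannot tell a change in one pool from an opposite change in the other.

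The expression arrays were first checked for the deleted gene. FUN30 read 9.63 and 9.40 (log2 signal) on the wild-type arrays, and 3.37 and 3.55 on the deletion arrays, below the background level of 5.24. The genotypes differed elsewhere too: MET17, a gene of methionine synthesis, read 5.49 and 5.47 in the wild type and 13.05 and 12.94 in the deletion. The wild-type values lay near the background level, and whether both strains carry an intact MET17 was not tested. No second isolate is named, and so a consequence of losing Fun30 and some other difference of this strain cannot be told apart. Whether a genotype's arrays were separate cultures is not stated either, and the p-values then cover the spread between arrays, which may be technical.

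SCP1, which encodes a transgelin (calponin family) that cross-links actin filaments, was strongly lower in the fun30 deletion, and it was the 1 gene of the 10 that passed the test. SCP1 (YOR367W) read 11.34 and 11.33 (log2 signal) in the wild type and 9.76 and 9.75 in the deletion. The arrays of each genotype lay almost on top of each other, and the genotypes were far apart. The difference was −1.58 ± 0.06 (SE, n = 2 against 2), a 2.99-fold fall, with an adjusted p of 0.00143 (limma, Benjamini-Hochberg over 5498 probe sets). Over all probe sets, 2.66% passed in either direction with 1.29% lower and 1.36% higher. SCP1 was rank 7 among the falls. The genes on either side of SCP1 did not pass: YOR365C differed by −0.01 ± 0.10 (SE, adjusted p = 0.952, limma) and the checkpoint gene RAD17 by 0.10 ± 0.07 (SE, adjusted p = 0.439, limma). The SCP1 call held in all 10 alternative fits, among them those that left out each array in turn.

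**Figure D1:**
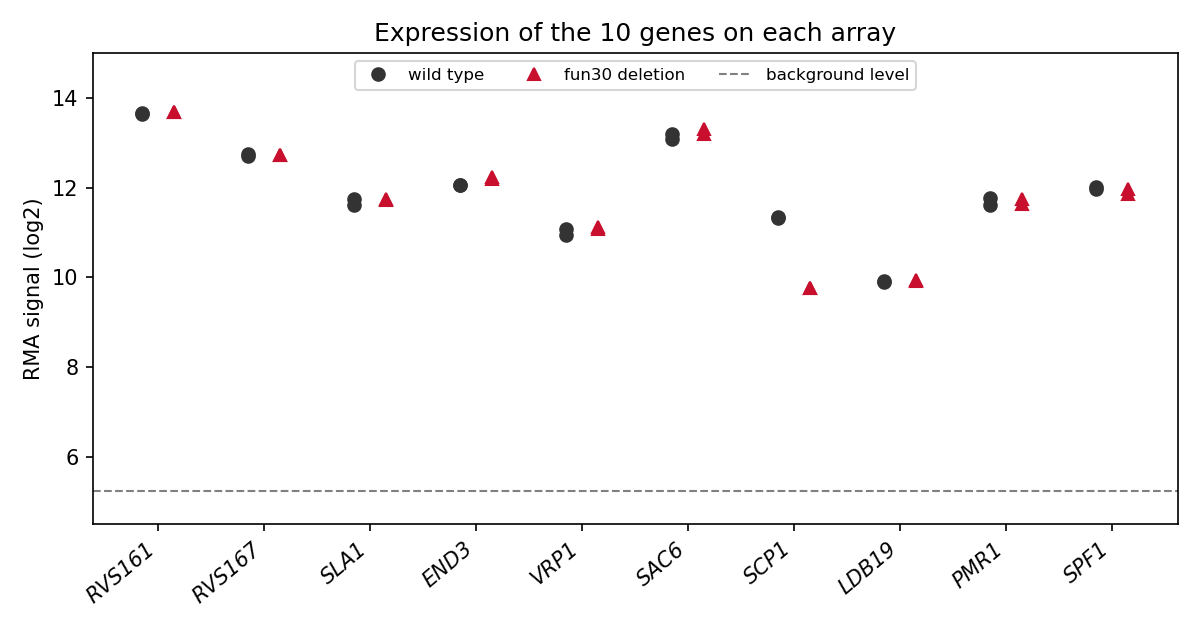
Log2 RMA signal of the 10 genes (x axis) on each of the 4 arrays, with circles for the 2 wild-type arrays, triangles for the 2 fun30 deletion arrays and a dashed line at the background level of 5.24. SCP1 is the gene whose triangles (9.75 and 9.76) lie well below its circles (11.33 and 11.34), and all 10 genes lie above the background level.

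SAC6 encodes fimbrin, the main actin bundling protein of the patch, which works beside Scp1. It read 13.08 and 13.19 in the wild type and 13.20 and 13.30 in the deletion. The higher wild-type array and the lower deletion array were 0.0017 apart (log2). The difference was 0.11 ± 0.08 (SE, adjusted p = 0.438, limma), and its 95% interval ran from −0.09 to 0.31. A fall of the size seen for SCP1 lies outside that interval, which covers only the spread between these arrays.

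The coat genes SLA1 and END3 encode partners in a complex with Pan1 that links the endocytic coat to actin assembly. END3 read 12.05 and 12.06 in the wild type and 12.19 and 12.24 in the deletion, with no overlap. Its difference of 0.16 ± 0.06 (SE) was the largest after that of SCP1 and did not pass (unadjusted p = 0.0541, adjusted p = 0.233, limma). SLA1 read 11.61 and 11.76 in the wild type and 11.73 and 11.75 in the deletion, inside the wild-type range. VRP1 encodes verprolin, which binds the yeast WASP protein Las17 and the type I myosins. It read 10.94 and 11.07 in the wild type and 11.07 and 11.12 in the deletion, a difference of 0.09 ± 0.07 (SE, adjusted p = 0.511, limma).

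The scission genes RVS161 and RVS167 encode the amphiphysin-like BAR proteins, which act as a heterodimer. RVS161 read 13.64 and 13.66 in the wild type and 13.69 and 13.68 in the deletion, and RVS167 read 12.70 and 12.74 against 12.73 and 12.73. The difference was 0.04 ± 0.06 (SE) for RVS161 and 0.01 ± 0.06 (SE) for RVS167, and neither passed (adjusted p = 0.756 and 0.956, limma). The genotypes overlapped for RVS167 and lay 0.02 apart for RVS161.

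LDB19 encodes the arrestin-related adaptor also called Art1, which directs nutrient transporters such as the arginine permease Can1 to endocytosis. It read 9.90 and 9.93 in the wild type and 9.91 and 9.94 in the deletion, a difference of 0.01 ± 0.06 (SE, adjusted p = 0.943, limma). PMR1 encodes the Golgi calcium and manganese pump, and SPF1 a P-type ATPase of the endoplasmic reticulum. PMR1 read 11.61 and 11.77 in the wild type and 11.63 and 11.75 in the deletion, with the deletion arrays inside the wild-type range. SPF1 read 12.02 and 11.97 in the wild type and 11.86 and 11.96 in the deletion, and its difference of −0.09 ± 0.07 (SE, adjusted p = 0.505, limma) was the only negative value beside SCP1.

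Of the 9 genes that did not pass, 8 had positive and 1 a negative difference, from −0.09 to 0.16 (log2), and 0 had an unadjusted p under 0.05 in limma, a mark that 1222 of the 5498 probe sets reached. Leaving out 1 array changed the sign for 4 of the 9, so the count of signs says little about a shared direction. The median difference over all probe sets was −0.003. The 95% intervals of the 9 genes reached at most 1.25-fold in either direction. Over all 10 genes, the arrays of the genotypes did not overlap for 4 with a higher signal in the deletion and for 2, SCP1 and SPF1, with a lower one. Over all probe sets these shares were 28.5% and 30%.

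**Figure D2:**
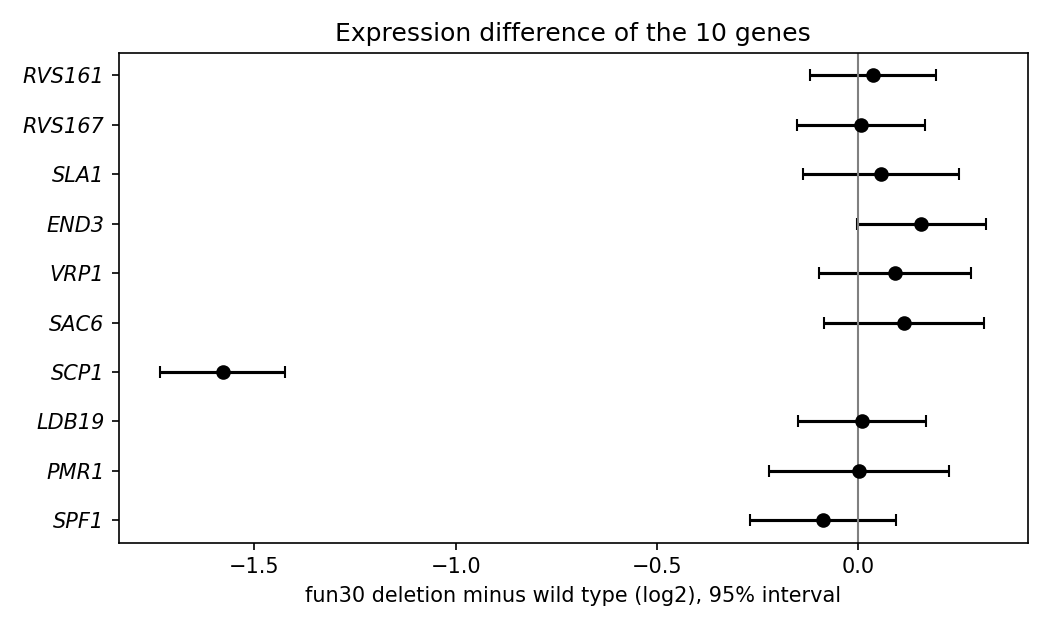
Difference in log2 signal, fun30 deletion minus wild type (x axis), for the 10 genes, with limma's estimate as a point and its 95% interval as a bar, not adjusted for the number of genes. SCP1 lies at −1.58, and the other 9 estimates lie between −0.09 and 0.16.

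No other gene of the wider machinery passed. Of 104 other genes in 8 lists of the endocytic, actin and pump machinery, 102 were measured on 103 probe sets. By limma, adjusted over all probe sets, 0 rose and 0 fell, beside 1.36% and 1.29% of all probe sets. Their median difference was 0.02 (log2) against −0.003 over all probe sets. With SCP1, the list of the actin filament network and bundling proteins had 1 of 19 genes lower, at a list median of −0.01, and no other gene of it had an unadjusted p under 0.05 in limma. All 7 subunits of the Arp2/3 complex, which nucleates the branches of the patch, were within 0.06 (log2) of 0, with 0 at an unadjusted p under 0.05 in limma. ARP3 differed by −0.05 ± 0.06 (SE) and ARP2 by −0.05 ± 0.06 (SE).

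In the list of the late coat, WASP and myosin module, 0 of 20 genes passed while 3 reached an unadjusted p under 0.05 in limma. Over all probe sets 2.66% passed and 22.2% reached that unadjusted mark. Farthest from 0 were LSB5, which encodes a protein that binds Las17, with −0.35 ± 0.07 (SE, adjusted p = 0.0721, limma), and LAS17 with 0.33 ± 0.08 (SE, adjusted p = 0.115, limma). Of 15 early coat and adaptor genes none passed and 2 had an unadjusted p under 0.05 in limma, with YAP1801, a clathrin assembly protein gene, at 0.26 ± 0.06 (SE, adjusted p = 0.116). Of 12 scission, uncoating and patch kinase genes 0 passed and 0 had an unadjusted p under 0.05 in limma. For the scission list, the largest difference was 0.12 ± 0.07 (SE) for SCD5, whose product targets a phosphatase to the coat.

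Among 13 arrestin-related Rsp5 adaptor genes 0 passed and 1, ART10, had an unadjusted p under 0.05 in limma (0.19 ± 0.07 SE, adjusted p = 0.206). CSR2 had the largest value of that list and the widest error, 0.26 ± 0.31 (SE). Among 13 measured P-type ATPase genes 0 passed, with the copper pump gene CCC2 at 0.26 ± 0.06 (SE, adjusted p = 0.115, limma) as the 1 below an unadjusted p of 0.05. Among 16 calcium and manganese handling genes 0 passed and 1, BSD2, was below an unadjusted p of 0.05 (0.23 ± 0.07 SE, adjusted p = 0.137, limma). These counts stand beside 2.66% of all probe sets that passed and 22.2% with an unadjusted p under 0.05 in limma.

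The genes next to the 10 were also measured, 19 of 20 of them. Only ECM10, which lies beside SPF1 and encodes a mitochondrial Hsp70 protein, passed, as 2.66% of all probe sets did. It rose by 0.48 ± 0.08 (SE, adjusted p = 0.0468, limma). It no longer passed when fun30 deletion replicate 1 (adjusted p = 0.0594), fun30 deletion replicate 2 (adjusted p = 0.0637) or wild type replicate 1 (adjusted p = 0.124) was left out of limma.

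On the integration arrays the deposited ratio does not say which pool is the numerator, so strains are placed relative to the median of their array, in log2 units with that median subtracted. For orientation, the recombination-deficient strains rad54, rad55, rad57 and rad59 lay between 1.88 and 3.20 above the median on the 2 arrays. A strain carries up to 2 barcode tags. Over all strains the SD of a tag was 0.284 with the ISU1 cassette and 0.281 with the SOD2 cassette, which gives a mean of 2 tags a standard error of 0.20. The dyes of the cassette and plasmid pools were exchanged between the arrays, so cassette, array and dye cannot be told apart in any difference between them. With 1 array per cassette there is no replicate and no test, and the tags of a strain share its DNA and its array. Of the 7 strains 3 (sla1, scp1 and pmr1) had both tags on both arrays, and 4 had only 1 tag on the ISU1 array, against 12.6% of all strains. The 7 strains had 13 features, of which 3 were empty on the ISU1 array (23.1%, against 1.95% of all features). Features empty on the ISU1 array lay farther from the median on the SOD2 array than the rest, with a median distance of 0.47 against 0.30.

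None of the 7 strains lay at least 2-fold from the median in the same direction on both arrays, where 1.91% of all strains lay above and 0.638% below. None passed 1.5-fold on both arrays either, which 4.91% did above and 2.34% below. On single arrays, rvs161 lay more than 2-fold above on the ISU1 array, as 3.23% of strains did, and ldb19 on the SOD2 array, as 4.73% did. Above 1.5-fold there was 1 strain of the 7 with the ISU1 cassette, against 8.12% of all strains, and 4 with the SOD2 cassette, against 13%. Of these 4, only ldb19 had 2 tags past 1.5-fold on the SOD2 array. The vrp1 strain had 1 tag, and pmr1 and spf1 each had a tag short of 1.5-fold. Below 1.5-fold there was 1 with the ISU1 cassette, against 7.6%, and 0 with the SOD2 cassette, against 6.76%. The median over the 7 was 0.32 with the ISU1 and 0.70 with the SOD2 cassette, and that over all strains −0.01 and 0.01. Both signs were positive for 5 of the 7, against 30.2% of all strains.

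**Figure D3:**
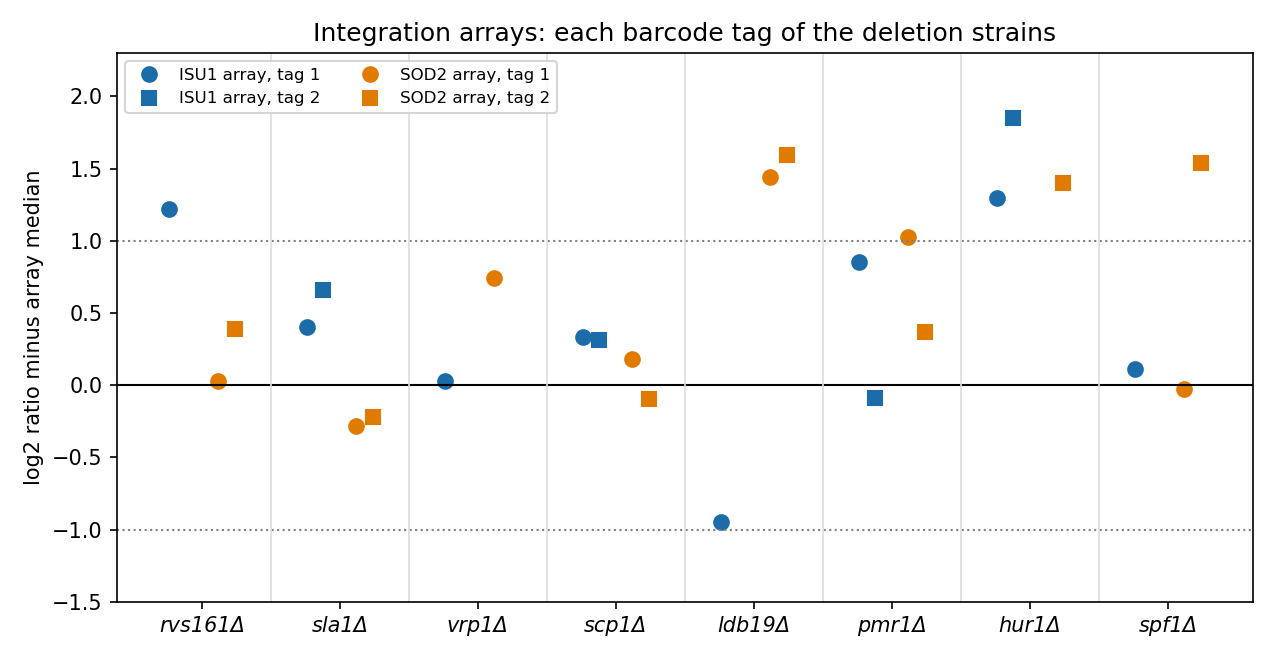
Log2 ratio minus the array median (y axis) of each barcode tag of 7 deletion strains and of the hur1 strain, with blue for the ISU1 array, orange for the SOD2 array, circles for the first and squares for the second tag, and dotted lines at 2-fold. The tags of sla1 and scp1, and those of ldb19 on the SOD2 array, lie at most 0.28 apart within an array. Those of spf1 on the SOD2 array lie 1.57 apart, and ldb19 has 1 tag on the ISU1 array.

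The coat strain sla1 lay above the median on the ISU1 array, with tags at 0.40 and 0.66, and below it on the SOD2 array, with tags at −0.28 and −0.22. The tags agreed in sign within an array, and the arrays differed by 0.78 ± 0.28 (SE from the tag spread), a difference that 9.80% of strains reached. The vrp1 strain had 1 tag in the table, at 0.03 with the ISU1 cassette and 0.74 with the SOD2 cassette, an array difference that 12.6% of strains reached.

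The scp1 strain had tags at 0.33 and 0.31 with the ISU1 cassette and at 0.18 and −0.10 with the SOD2 cassette. Its mean was 0.32 on the first and 0.04 on the second, where 20.0% and 46.6% of strains lay higher. The strain of the gene with the large fall in expression was thus in the upper part of the pool on one array and near the middle on the other. That fall was measured in a haploid fun30 deletion, and the ratios in diploid strains with FUN30 in place. The fun30 strain itself was in the same pool at −1.43 and −1.20, with 1 tag on each array.

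The scission strain rvs161 had 1 tag on the ISU1 array, at 1.22, and tags at 0.03 and 0.39 on the SOD2 array. It was thus high on one array and near the median on the other. The first tag alone gave 1.22 and 0.03. The array difference of 1.01 ± 0.35 (SE from the tag spread) was reached by 4.46% of strains. Among 3690 strains with both tags on both arrays, the one nearest to rvs161 over its 3 tag values was abp1, at a Euclidean distance of 0.17. The abp1 strain lacks an actin-binding patch protein, and its tags lay at 1.10 and 0.90 with the ISU1 cassette and at 0.07 and 0.27 with the SOD2 cassette. The next nearest were a strain without a gene name at 0.29 and stp3 at 0.30. Since rvs161 had no second tag on the ISU1 array, the likeness there rests on 1 value.

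The ldb19 strain lay on opposite sides of the median on the arrays. Its 1 tag on the ISU1 array lay at −0.94, a ratio of 0.52, and its tags on the SOD2 array lay at 1.44 and 1.59, ratios of 2.88 and 3.20. Only 1.49% of strains lay higher on the SOD2 array, and 97.6% lay higher on the ISU1 array. The array difference of −2.46 ± 0.35 (SE from the tag spread) was rank 2 of 4235 strains, after that of the isu1 strain (−4.25), which lacks the gene that the ISU1 cassette replaces. Of all strains 0.472% passed 1.5-fold in opposite directions. The first tag alone gave −0.94 and 1.44. Strains with 1 tag with the ISU1 cassette and 2 with the SOD2 cassette differed by at least 1 (log2) between arrays in 15.8% of 95 cases, against 3.55% of 3690 strains with all tags, and the part of the missing tag in the ldb19 value was not tested.

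**Figure D4:**
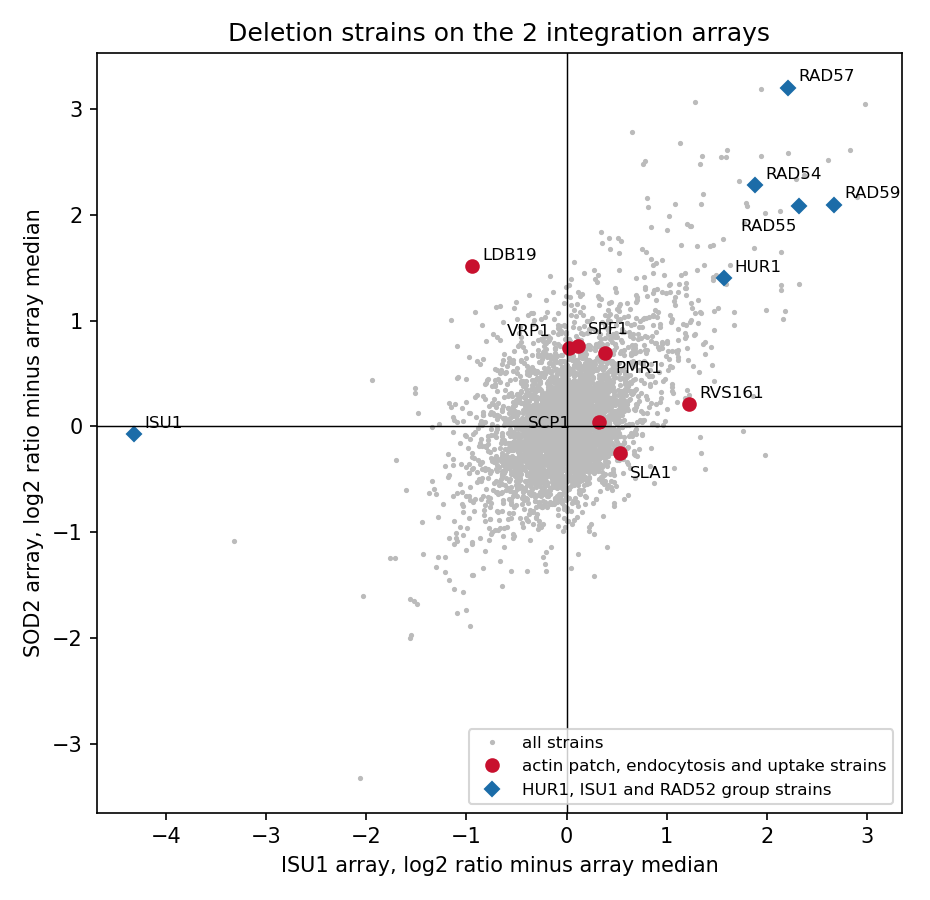
Log2 ratio minus the array median of each deletion strain with the ISU1 cassette (x axis) and with the SOD2 cassette (y axis), with grey points for all strains, red circles for the 7 strains of the actin patch, endocytosis and uptake genes, and blue diamonds for hur1, isu1 and RAD52 group strains. The ldb19 strain lies alone at −0.94 and 1.52, rvs161 lies to the right at 1.22 and 0.21, and the other red circles lie within the cloud.

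The pump strain pmr1 lay above the median on both arrays on average, at 0.38 and 0.70, but its tags disagreed. The first tag lay at 0.86 with the ISU1 cassette and 1.03 with the SOD2 cassette, and the second at −0.09 and 0.37. Only 2.83% of strains had tags as far apart on the ISU1 array. The ORF HUR1 overlaps the end of PMR1 on the opposite strand in the RefSeq gene table, so its deletion can remove part of PMR1. The hur1 strain lay far above the median, with tags at 1.29 and 1.85 with the ISU1 cassette and 1 tag at 1.40 with the SOD2 cassette. It was rank 50 of 4235 strains by the mean of both arrays, where pmr1 was rank 374. The hur1 strain lay higher than pmr1 by 1.19 ± 0.28 with the ISU1 cassette and by 0.70 ± 0.34 with the SOD2 cassette (SE from the tag spread). Expression of HUR1 differed by 0.34 ± 0.17 (SE, adjusted p = 0.313, limma) in the fun30 deletion.

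The spf1 strain had 1 tag on the ISU1 array, at 0.11, and tags on the SOD2 array at −0.03 and 1.54. Only 0.238% of strains had tags as far apart on the SOD2 array, so its mean of 0.76 there describes neither tag. With the first tag alone spf1 lay at the median on both arrays.

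Strains of neighbouring genes were measured for 16 of the 20 neighbours. Past 1.5-fold on both arrays were 2 above, hur1 and ldb7, and 3 below, sac7, hir1 and rad17, beside 4.91% and 2.34% of all strains. The ldb7 strain, next to SLA1, lacks a subunit of the RSC remodeller and lay at 1.94 and 2.56, with 1 tag on each array. The hir1 strain, on the other side of SLA1, lacks a histone chaperone subunit and lay at −0.71 and −0.98. The rad17 strain, next to SCP1, lay at −0.81 and −1.17, with 1 tag on each array. The sac7 strain, next to RVS167, lacks a Rho1 GTPase activating protein and lay at −0.93 and −0.71. The sla1 strain thus lay closer to the median than both strains of the genes beside it.

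Of 78 other listed strains with values on both arrays, 3 lay above 1.5-fold on both and 1 below, beside 4.91% and 2.34% of all strains. The 3 above were vcx1 and both strains annotated to RIM8. VCX1 encodes the vacuolar calcium and proton exchanger, and its strain lay at 1.28 and 3.07, with 1 tag on each array. RIM8, which encodes an arrestin-related protein of the pH signalling pathway, had strains at 0.86 and 0.85 and at 0.86 and 1.05. The strain below was cnb1, which lacks the regulatory subunit of calcineurin, the calcium-dependent phosphatase, and lay at −1.07 and −0.95. No strain of the early coat (12), late coat, WASP and myosin module (17 strains), actin network (14), scission (8) or P-type ATPase (10) lists passed 1.5-fold on both arrays. In the early coat list ent1, which lacks an epsin, had the largest mean, with 0.68 and 0.34. No Arp2/3 strain was analysed here.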

How the data were processed

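The authors made the log2 expression values with RMA; per the submitters' processing notes limma was used too, in versions that are not given in the sources. RMA corrects background and makes array distributions nearly equal, so a shift of the whole transcriptome would not be seen. Of 10928 probe sets, 5498 name 1 gene of the RefSeq table (R64). The background level is the 95th percentile over 1747 probe sets for other genes. Array medians lay between 10.59 and 10.61. limma 3.58.1 in R 4.3.3 (lmFit and eBayes) was fitted on genotype only (2-sided, Benjamini-Hochberg, threshold 0.05), on 2 residual and 3.23 prior degrees of freedom.

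Integration values are linear ratios of both dyes as deposited by the authors. How they were scaled and which pool is the numerator is not given in the sources. On the ISU1 array the plasmid pool carried Cy5, on the SOD2 array the cassette pool, per the labels. The arrays correlated positively (r = 0.53 over strains), and neither array's sign was turned. The array median was subtracted from log2 ratios (ratios of 1.00 and 1.06) and averaged over the features of a strain. Features 10971 apart were treated as tags of 1 strain, since all 3402 pairs with both named shared a gene. This gave 4303 strains, 4235 on both arrays. Of 8120 features 158 and 42 were empty. A strain was counted when past 2-fold, or 1.5-fold, the same way on both arrays. The number of arrays limits the precision.

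The 10 genes and all lists were chosen with earlier results of these data known. Beside the 10, genes past the threshold or, in their absence, up to 2 with the largest values per list were candidates for naming, with neighbours past a threshold and the nearest strains. The genes most like SCP1 over the 4 arrays by Pearson's r were PUG1, YBR284W and YFL064C (each r = 1.00). Of these, PUG1 and YFL064C fell by 0.49 and 0.53 (log2, limma). YBR284W differed by only −0.03 ± 0.06 (SE, adjusted p = 0.828, limma). Over 4 arrays r reflects the spacing of the values and not the size of the difference, so it says little about likeness. Replicate numbers in the titles are shared by both genotypes, but the labels do not tie them to a batch. Promoter motifs, planned as a description, were not searched, since no sequence was used here. Procedures were tested on simulated data. Other steps used Python 3.11.15 with pandas 2.3.3, numpy 2.4.6, matplotlib 3.10.9 and SciPy 1.17.1.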

Additional observations from a re-analysis of the deposited data

Results flagged for a closer look

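The ldb19 and sla1 strains lay on opposite sides of the median on the 2 cassette arrays. The ldb19 strain lay at −0.94 (log2) on the ISU1 array, from 1 tag, and at 1.52 on the SOD2 array, from 2. The sla1 strain lay at 0.53 on the ISU1 array and at −0.25 on the SOD2 array, each from 2 tags. With 1 array per cassette, neither difference was tested, and cassette, array and dye cannot be told apart.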

How the results depend on the processing

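The fall of SCP1 ranged from −1.58 to −1.56 over 10 alternative fits, with adjusted p values from 7.12e-05 to 0.0123 (limma), and 1 of the 10 genes passed in each. The other 9 genes passed in none of the alternative fits (lowest adjusted p 0.168, limma). Leaving out each array in turn gave −0.013 to 0.027 for RVS167, −0.017 to 0.13 for SLA1, −0.0070 to 0.025 for LDB19, −0.083 to 0.085 for PMR1 and −0.23 to 0.74 for CSR2. The lowest value of each came without wild type replicate 1 and was negative where the main value was positive, as were those of LDB19 (−0.0043) and PMR1 (−0.059) without fun30 deletion replicate 2. Without wild type replicate 2, CSR2 (0.74, adjusted p = 0.0203) and HUR1 (0.58, adjusted p = 0.0487) passed (limma). With the probe sets of the chromosome IV run from GCD6 to EXG2 left out, ECM10 did not pass (adjusted p = 0.0638, limma), nor with an intensity trend in the prior (0.0561). Over all probe sets, 75 rose and 71 fell, with 23 and 45 without that run. Leaving out 1 array gave 52 to 194 rises and 23 to 307 falls. The replicate numbers pair only 2 arrays with 2, and deviations of same-numbered arrays correlated with r = 0.26. With the replicate block 271 rose and 523 fell, among them LSB5 (adjusted p = 0.0246) and LAS17 (0.0265), and SCP1 kept its call (adjusted p = 0.000346, limma).

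On the integration arrays 81 strains lay above and 27 below 2-fold on both, 208 and 99 at 1.5-fold, and 255 and 115 by limma on the mean of both arrays against 0, which takes the cassettes as replicates and pools the spread of all strains. By that test 1 of the 7 strains, rvs161, passed (adjusted p = 0.0446), beside 255 above and 115 below among 4235 strains. Its ISU1 value of 1.22 came from 1 tag, and its SOD2 value was 0.21. Of 57 values of the 7 strains under other centring, single tags or complete tags, 6 moved by more than their tag error. All of them were single-tag values of pmr1 and spf1. Other centring shifted all strains of an array alike, by at most 0.08 (log2). Complete-tag values, and those of strains with 1 tag, repeat the main value. Only single tags of strains with 2 tags could thus move by more, so the count of 57 overstates the check. The single tag and the empty features limit what the ISU1 array shows for rvs161, vrp1, ldb19 and spf1.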

Other observations

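Other strains of this machinery also had different values on the 2 arrays, with no test, and cassette, array and dye cannot be told apart. The strain lacking APP1, an actin patch phosphatidate phosphatase gene, lay at −0.52 with the ISU1 and 1.12 with the SOD2 cassette, with 2 tags each, and its array difference of −1.65 was rank 22 of 4235. The abp140 strain, which lacks an actin filament binding methyltransferase, lay at −0.01 and 0.95. The drs2 strain, which lacks a phospholipid flippase of the late Golgi, lay at 0.53 and 1.64, from 1 tag on each array.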
